A study of Mus musculus with 2 samples.

Results

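Interferon-induced genes were followed in whole mouse kidney, in RNA labelled Glis2 KO (called mutant below) against RNA labelled Glis2 WT (wild type). The members were 35 listed genes, found on the array by gene name or by a short set of older names (G1p2 for Isg15, for example). Of these, 33 had a probe, 1 spot each, among 19481 genes with a probe in all. Oas1a and Gbp3 had none under the listed names, and Oas1g was well above background in only 1 of 4 channels, the mutant channel of replicate 1. That left 32 members among 18357 genes tested. Each of 2 Agilent 60-mer arrays held both RNAs in different dyes, with the mutant RNA in Cy3 on replicate 1 and in Cy5 on replicate 2. The series describes mice at postnatal days 25 and 60, pools of 3 kidneys and 2 independent experiments, but the age, strain and pool of the mice on a given array are not stated in the labels, nor is the nature of the allele. The p-values therefore rest on the spread between these 2 arrays, which may be technical, and on a variance pooled over all genes. Of the degrees of freedom, 1 came from a gene's own arrays and 6.58 from the pooled variance. A moderated SE thus leans on the pooled variance more than on the gene's own 2 values. Median signal was 4.06 to 5.18 times the local background in the 4 channels, and precision is limited by there being 2 arrays. The Glis2 probe itself gave log2 ratios (mutant over wild type) of 0.32 and 0.16, averaging 0.24 ± 0.11 (moderated SE, n = 2; limma's adjusted p = 0.328), so it gave no check of the labels. All 7 proximal tubule and all 5 podocyte markers, and 5 of 6 markers of the loop, distal tubule and collecting duct, were measured above background, with Slc12a1 the exception.

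Interferons are secreted proteins. Type I interferons (alpha and beta) are released by cells that sense viral or other foreign nucleic acid. They signal through the receptor Ifnar1 and Ifnar2 to a complex that includes Stat2 and Irf9. That complex binds a DNA element called the interferon-stimulated response element (ISRE). Interferon gamma, made by T and natural killer cells, signals through Ifngr1 and Ifngr2 and acts on genes through the gamma-activated site (GAS). The genes induced include RNA sensors, antiviral effectors such as the Ifit and Oas families, and the immunity-related and guanylate-binding GTPases, which attack the vacuoles of intracellular microbes. Many genes respond to both kinds of interferon.

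The response elements can be read in the members' promoters, and 7 promoters that hold a match are printed. The 7 are a selection. Promoters with a match that are not printed include that of Ifi205, which was called higher. They also include those of Irf8, Ifit2, Stat2, Oas3, Rsad2, Irgm1 and Gbp2, which were not called, and those of Oas1a, Oas1g and Gbp3. Promoters without a match are not shown, among them those of Ddx58, Oasl2 and Ifitm3, which were called higher. Sequences are those of RefSeq on GRCm38.p6, 250 bases before the annotated start, 5′ to 3′ on the strand of the gene. Capitals mark matches to an ISRE core (GAAA, any 2 bases, GAAA, or its complement on the other strand, TTTC, any 2 bases, TTTC) or to GAS (TTCNNNGAA, the same on both strands); matches may overlap.
Isg15, chr4:156200819-156201068, minus strand: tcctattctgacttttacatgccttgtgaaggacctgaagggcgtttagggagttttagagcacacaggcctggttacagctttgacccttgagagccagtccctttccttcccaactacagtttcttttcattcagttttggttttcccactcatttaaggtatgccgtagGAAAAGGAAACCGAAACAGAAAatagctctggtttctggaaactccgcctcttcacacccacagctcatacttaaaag
Ifit1, chr19:34640639-34640888, plus strand: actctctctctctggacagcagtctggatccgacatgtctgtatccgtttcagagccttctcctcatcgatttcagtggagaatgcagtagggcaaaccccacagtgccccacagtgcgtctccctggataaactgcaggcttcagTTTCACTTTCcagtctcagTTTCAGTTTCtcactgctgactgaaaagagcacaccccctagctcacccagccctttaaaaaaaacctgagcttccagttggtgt
Ifit3, chr19:34583279-34583528, plus strand: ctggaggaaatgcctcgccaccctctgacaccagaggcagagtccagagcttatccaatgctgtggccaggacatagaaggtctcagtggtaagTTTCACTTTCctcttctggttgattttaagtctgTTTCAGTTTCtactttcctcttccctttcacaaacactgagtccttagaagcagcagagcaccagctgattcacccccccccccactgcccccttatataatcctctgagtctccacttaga
Bst2, chr8:71537473-71537722, minus strand: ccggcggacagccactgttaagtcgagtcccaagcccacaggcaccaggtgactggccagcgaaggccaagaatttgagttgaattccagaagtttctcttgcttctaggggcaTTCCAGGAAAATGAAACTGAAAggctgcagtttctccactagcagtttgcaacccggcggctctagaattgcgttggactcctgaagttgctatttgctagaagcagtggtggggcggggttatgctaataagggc
Irf1, chr11:53769764-53770013, plus strand, the upstream of its 2 listed starts: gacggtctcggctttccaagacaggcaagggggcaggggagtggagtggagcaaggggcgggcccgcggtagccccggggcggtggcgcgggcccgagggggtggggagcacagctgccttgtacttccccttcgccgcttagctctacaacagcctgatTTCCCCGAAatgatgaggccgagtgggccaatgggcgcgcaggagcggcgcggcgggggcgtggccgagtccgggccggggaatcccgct
Igtp, chr11:58199306-58199555, plus strand: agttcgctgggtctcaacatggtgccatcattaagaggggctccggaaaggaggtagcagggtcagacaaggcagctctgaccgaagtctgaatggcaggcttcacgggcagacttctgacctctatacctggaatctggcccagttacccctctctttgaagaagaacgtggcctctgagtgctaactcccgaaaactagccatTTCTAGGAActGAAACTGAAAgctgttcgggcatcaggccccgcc
Tgtp (Tgtp1 in RefSeq), chr11:48992247-48992496, minus strand: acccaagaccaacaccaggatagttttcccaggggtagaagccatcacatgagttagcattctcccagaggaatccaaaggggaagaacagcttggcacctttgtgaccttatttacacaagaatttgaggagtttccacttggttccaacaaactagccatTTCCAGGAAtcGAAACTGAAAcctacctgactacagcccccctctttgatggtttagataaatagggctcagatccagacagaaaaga
The Isg15 run holds 3 overlapping ISRE cores, whose first bases lie 78, 72 and 66 bases before the start, and those of Ifit1 and Ifit3 hold 2 each. In Bst2 a GAS match overlaps an ISRE core. Irf1 holds a GAS match alone, 90 bases before its upstream start. Igtp and Tgtp hold both motifs, and in each the GAS match begins 11 bases before the ISRE core. A match is a description of the letters and does not show that a factor binds there.

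Of the 32 members tested, 13 were called higher in the mutant RNA and 0 lower, against a background of 3.79% of all genes called higher and 1.21% called lower (limma, adjusted p under 0.05 over all 18357 genes). At an unadjusted p under 0.05 in limma, 25 members were higher, beside 10.1% of all genes, and 1, Tgtp, lower, beside 6.31%. The log2 ratio was above 0 on both arrays for 29 members, where 31.9% of all genes had that pattern. It was below 0 on both for 2 members, Oas3 and Tgtp, and for 28.9% of all genes, and Mx1 had opposite signs. The median log2 ratio of the members was 0.44 on replicate 1 and 0.41 on replicate 2, beside medians of -0.003 and 0.02 over all genes tested. Members differed between the arrays by a median of 0.14, and all genes by 0.17. The members were chosen with earlier results of these arrays known, so the counts are a description. Ratios are on a scale with 50 intensity units added to each channel, which understates the change of dim genes. In whole-kidney RNA, more cells of a type and more RNA per cell cannot be told apart.

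**Figure D1:**
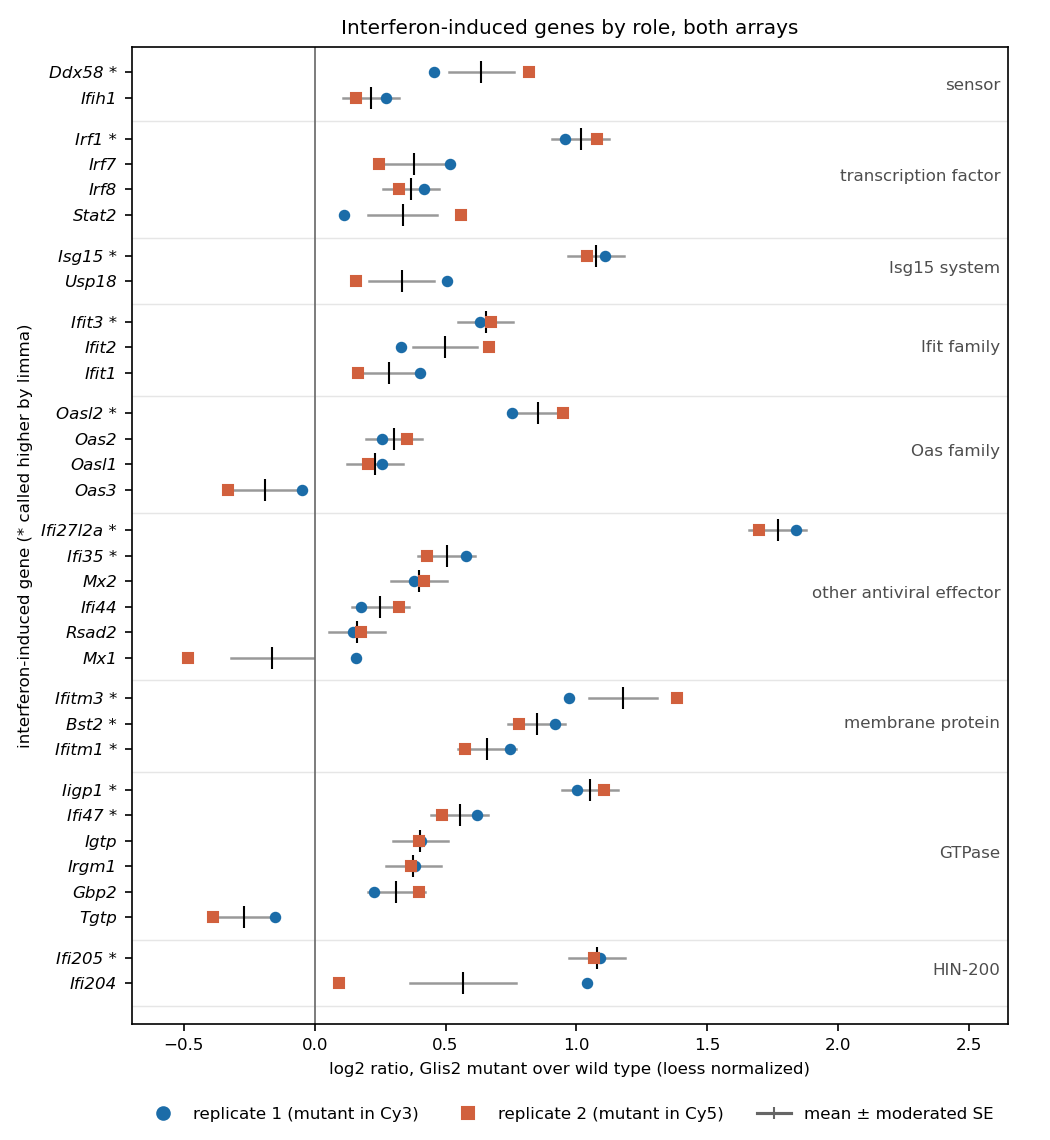
Log2 ratio (mutant over wild type, x axis) of the 32 tested members, grouped by role; circles are replicate 1, squares replicate 2, and the black mark and grey line are the mean ± limma's moderated SE. The 13 members with an asterisk were called higher, and Ifi27l2a lies furthest right at 1.84 and 1.70.

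The cytosolic RNA sensors came out on either side of the threshold. Ddx58, which encodes RIG-I, was called higher (0.45 and 0.82 on the 2 arrays, mean 0.64 ± 0.12, moderated SE, n = 2, adjusted p = 0.0288 in limma). Its normalized log2 level was 7.87 and 8.11 in mutant RNA and 7.42 and 7.29 in wild type RNA. The groups thus did not overlap, as for 23 members in all and 16.4% of all genes in that direction. Here and below, overlap is judged on levels across the 2 arrays and does not use the pairing within each array. Ifih1, which encodes the sensor MDA5, had ratios of 0.27 and 0.16 and was not called (adjusted p = 0.38). Its wild type level on replicate 2 (8.33) lay above its mutant level on replicate 1 (8.26).

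Among the transcription factors, Irf1, a factor induced strongly by interferon gamma, was the member called higher. Its log2 level was 10.24 and 10.66 in mutant RNA against 9.28 and 9.58 in wild type RNA, a mean log2 ratio of 1.02 ± 0.11 (moderated SE, n = 2) or 2.02-fold, with an adjusted p of 0.00229 in limma. Irf7, which drives type I interferon genes, stood at 0.52 and 0.25 (adjusted p = 0.14), and Irf8, a factor of macrophages and dendritic cells, at 0.42 and 0.32 (adjusted p = 0.12). Stat2, a signal transducer of the type I response, gave 0.11 on replicate 1 and 0.56 on replicate 2 (adjusted p = 0.264). For all 4 factors the mutant levels lay above the wild type levels, as for 16.4% of all genes. For 3 of the 4 the difference did not pass the test.

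Isg15 encodes a ubiquitin-like protein that is attached to other proteins after interferon, and Usp18 the protease that removes it. Isg15 had a log2 level of 9.04 and 9.11 in mutant RNA and of 7.92 and 8.07 in wild type RNA. Its ratios of 1.11 and 1.04 gave a mean of 1.08 ± 0.11 (moderated SE, n = 2), 2.11-fold, with an adjusted p of 0.00168 in limma. Usp18 followed on replicate 1 (0.50) but less on replicate 2 (0.16), and was not called (adjusted p = 0.23). Its wild type level was 7.12 on replicate 1 and 7.90 on replicate 2, so its groups overlapped.

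The 3 Ifit proteins, which bind viral RNA and are encoded next to each other, had positive ratios on both arrays. Ifit3 was called higher, at 0.63 and 0.68 (mean 0.65 ± 0.11, moderated SE, n = 2, adjusted p = 0.0134 in limma), with mutant levels of 10.29 and 10.38 against 9.65 and 9.71. Ifit2 reached 0.33 and 0.67 (adjusted p = 0.0667) and Ifit1 0.40 and 0.16 (adjusted p = 0.271). Ifit1 and Ifit3, whose promoters above each hold 2 ISRE cores, thus lay on different sides of the threshold, and whether their ratios differ was not tested. Ifit1 and Ifit2 were dimmer. With the scanner's own log ratios, which add no offset, Ifit1 stood at 0.73 and 0.21 and Ifit2 at 0.55 and 1.04. The scanner's P on the 2 arrays was 0.0323 and 0.708 for Ifit1, and 0.0886 and 0.287 for Ifit2.

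The Oas enzymes make 2′-5′ oligoadenylates, which activate a ribonuclease, and the related Oasl proteins also belong to the response. Oasl2 was the member called, with levels of 8.75 and 8.90 in mutant RNA against 7.999 and 7.95 in wild type RNA (mean log2 ratio 0.85 ± 0.11, moderated SE, n = 2, adjusted p = 0.00551 in limma). Oas2 (0.26 and 0.35) and Oasl1 (0.26 and 0.20) were positive and not called, with adjusted p of 0.204 and 0.339. Oas3 was negative on both arrays, at -0.05 and -0.33 (adjusted p = 0.479). The family thus held 1 call among 4 tested genes, beside 3.79% of all genes called higher. Oas1g was not measured and Oas1a had no probe.

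Of the 6 other antiviral effectors, 2 were called higher, beside 3.79% of all genes. Ifi27l2a, a small interferon-alpha-inducible membrane protein gene, had the largest ratio of all members and ranked 22 of all 18357 genes. Its log2 level was 12.37 and 12.30 in mutant RNA and 10.53 and 10.60 in wild type RNA, a mean ratio of 1.77 ± 0.11 (moderated SE, n = 2) or 3.41-fold, with an adjusted p of 0.000303 in limma. Ifi35 was called near the threshold, at 0.58 and 0.43 (adjusted p = 0.0433). Rsad2, the antiviral radical SAM enzyme viperin, stood at 0.15 and 0.18 (adjusted p = 0.509), and Ifi44 reached 0.18 and 0.32 (adjusted p = 0.311). Mx2, which encodes a dynamin-like antiviral GTPase, gave 0.38 and 0.42 (adjusted p = 0.0875). Its relative Mx1 gave 0.16 and -0.49 (adjusted p = 0.672). RefSeq annotates Mx1 and Mx2 as transcribed pseudogenes in the C57BL/6J reference.

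Of the membrane proteins that hold virus at the cell surface or block its entry, 3 of 3 were called higher. The share of all genes called higher was 3.79%. Ifitm3, which blocks fusion of viruses in endosomes, had levels of 11.93 and 12.04 in mutant RNA against 10.96 and 10.66 in wild type RNA, a mean log2 ratio of 1.18 ± 0.13 (moderated SE, n = 2) with an adjusted p of 0.0026 in limma. Its relative Ifitm1 had ratios of 0.75 and 0.57 (mean 0.66, adjusted p = 0.015). Bst2, the tetherin that holds budding virus on the cell, had a level of 11.19 on both arrays in mutant RNA and of 10.27 and 10.41 in wild type RNA (mean log2 ratio 0.85, adjusted p = 0.0049). None of the 3 had overlapping groups, and the mutant levels lay above the wild type levels, as for 16.4% of all genes.

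**Figure D2:**
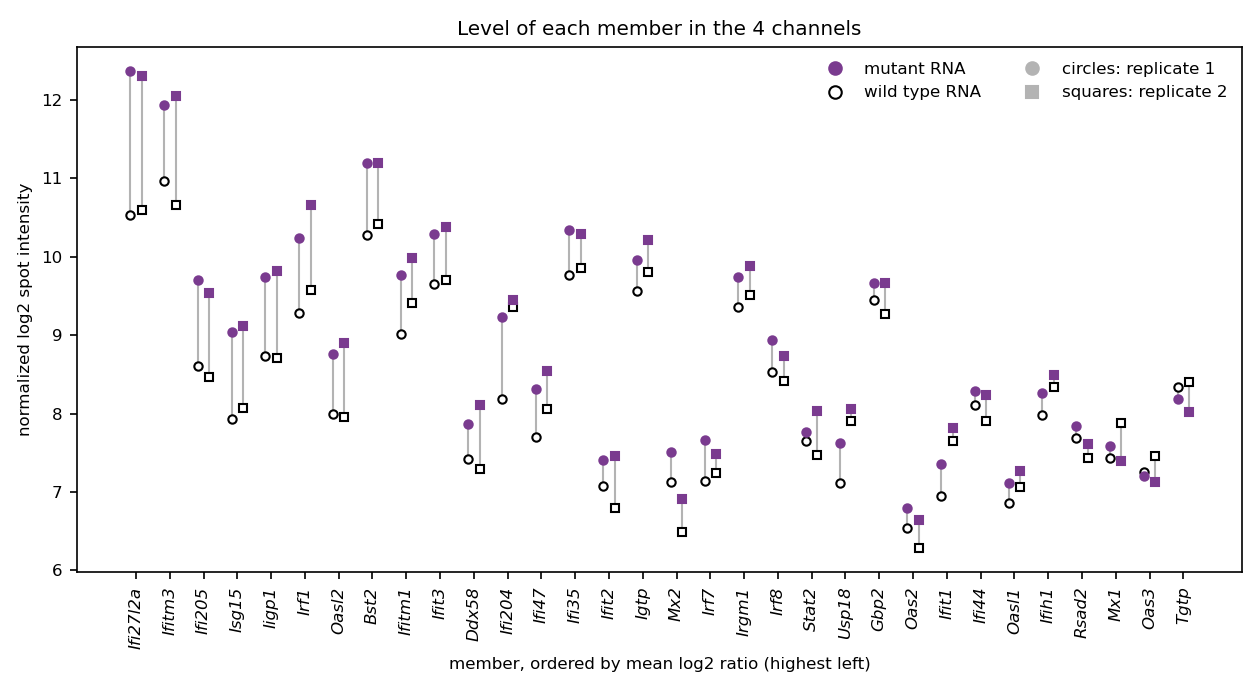
Normalized log2 spot intensity (y axis) of each tested member in mutant RNA (filled) and wild type RNA (open), circles for replicate 1 and squares for replicate 2, ordered by mean log2 ratio; intensities are compared within a member and not between members. Filled marks lie above open marks on both arrays for 29 members, and the open marks of Ifi204 differ from each other by over 1 unit.

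Among the interferon-inducible GTPases, 2 of 6 tested were called higher and 0 lower, beside 3.79% and 1.21% of all genes. Iigp1, an immunity-related GTPase, led them with levels of 9.74 and 9.81 in mutant RNA against 8.74 and 8.71 in wild type RNA (mean log2 ratio 1.05 ± 0.11, moderated SE, n = 2, or 2.08-fold, adjusted p = 0.00192 in limma). Ifi47, of the same family, was at 0.62 and 0.49 (mean 0.55, adjusted p = 0.0288). Igtp and Irgm1, both immunity-related GTPases, had nearly equal ratios on the 2 arrays, 0.41 and 0.40 for Igtp and 0.38 and 0.37 for Irgm1, and missed the threshold with adjusted p of 0.0842 and 0.108. The guanylate-binding protein gene Gbp2 gave 0.23 and 0.40 (adjusted p = 0.204).

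Tgtp went the other way, with mutant levels of 8.19 and 8.02 below wild type levels of 8.34 and 8.404, a mean log2 ratio of -0.27 that was not called (adjusted p = 0.297). RefSeq lists a pair of genes, Tgtp1 and Tgtp2, under that name, and which of them the probe reads was not tested. Tgtp and Igtp carry the same arrangement of GAS and ISRE core in the promoters printed above, while their ratios had opposite signs on both arrays. A probe that the array calls Gbp4 carries the accession of the gene now named Gbp3. Read as Gbp3, a guanylate-binding protein gene, it gave -0.45 and -0.44 (mean -0.45 ± 0.11, moderated SE, n = 2) and was not called (adjusted p = 0.0593 in limma), with mutant levels of 9.57 and 9.80 against 10.02 and 10.25 in wild type RNA. The mutant levels thus lay below the wild type levels, as for Oas3 and Tgtp and for 12.2% of all genes.

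The HIN-200 proteins are interferon-induced DNA-binding proteins encoded by a family of similar genes. Whether the HIN-200 and Ifit probes also read related family members was not tested. Ifi205 had levels of 9.70 and 9.54 in mutant RNA against 8.61 and 8.47 in wild type RNA and was called higher (mean log2 ratio 1.08 ± 0.11, moderated SE, n = 2, 2.11-fold, adjusted p = 0.00165 in limma). Ifi204 had a ratio of 1.04 on replicate 1 and of 0.09 on replicate 2, and was not called (adjusted p = 0.211). Its mutant levels were 9.23 and 9.45, while its wild type levels were 8.19 on replicate 1 and 9.36 on replicate 2. The difference of Ifi204 between arrays was larger than that of 99.4% of all genes, and dye, slide and RNA pool cannot be told apart as its source.

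**Figure D3:**
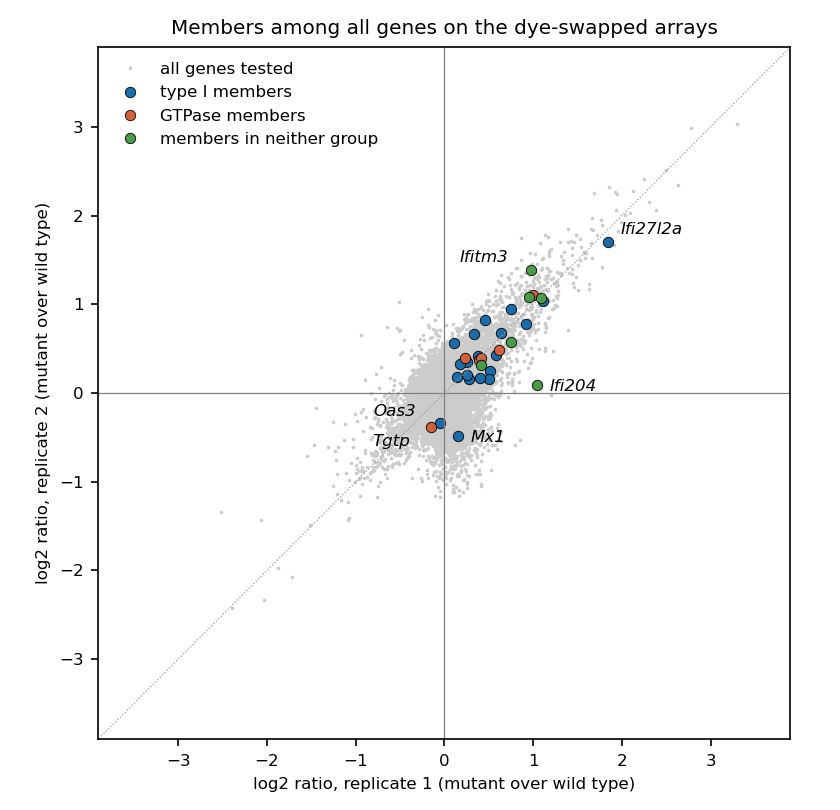
Log2 ratio on replicate 1 (x axis) against replicate 2 (y axis), with all 18357 genes in grey and the members coloured as type I, GTPase or neither; the dotted line marks equal ratios. Of the 32 members 29 lie in the upper right quadrant, Mx1 and Ifi204 lie furthest from the line, and Ifi27l2a stands apart from the rest.

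The 20 tested members usually assigned to type I interferon (the sensors, Irf7, Stat2, Isg15, Usp18, the Ifit and Oas families, the other effectors and Bst2) were set against the 6 tested GTPases, which respond to interferon gamma. The type I members had medians of 0.39 on replicate 1 and 0.39 on replicate 2, and the GTPases 0.40 and 0.40. Type I minus GTPase was -0.0038 on replicate 1 and -0.013 on replicate 2. With Gbp3 counted through its accession, the differences were 0.0072 and -0.012. With the scanner's log ratios they were 0.21 and 0.16. Type I members ran from -0.19 to 1.77 in their means and GTPases from -0.27 to 1.05. The difference between the groups was not tested, and these medians do not show that they are alike. The 6 members in neither group (Irf1, Irf8, Ifi204, Ifi205, Ifitm1 and Ifitm3) had medians of 0.96 and 0.82. Of these 6 members, 4 were called higher, beside 3.79% of all genes.

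Of 28 listed members with a promoter entry, 15 (53.6%) held an ISRE core in at least 1 window of 250 bases before a start, where 3.46% of 27025 genes in the promoter table did (2.98% of 32851 windows). For GAS the counts were 7 members (25%) and 8.13% of genes. The members were listed as interferon-induced genes, so these shares describe the list and not the arrays. Of the 32 tested members, 25 had an entry, and Ifi27l2a, Iigp1, Ifi204, Oas2, Mx1, Mx2 and Usp18 had none. The values below thus leave out Ifi27l2a (1.77, the largest ratio of all members) and Iigp1 (1.05), both called higher. The others without an entry were not called. Among the 25, the median ratio was not higher with an ISRE core than without. The 12 tested members with an ISRE core had a median log2 ratio of 0.36, ranged from -0.27 (Tgtp) to 1.08 (Ifi205 and Isg15), and held 4 calls. The 13 tested members without one had a median of 0.50, ranged from 0.21 (Ifih1) to 1.18 (Ifitm3), and held 7 calls. The 6 with GAS had a median of 0.45 and held 2 calls, and the 19 without had a median of 0.38 and held 9 calls. Of all genes tested, 3.79% were called higher. Absence of a match says only that these letters are not in this window.

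Of genes of the pathway that are not members, 52 ligands, receptors, signalling proteins and nucleic acid sensors were listed, of which 42 were tested. Limma called 4 higher (9.52%, beside 3.79% of all genes) and 0 lower (beside 1.21%). At an unadjusted p under 0.05 in limma, 7 were higher and 1 lower, beside 10.1% and 6.31% of all genes. The medians were 0.05 and 0.10. The calls were Socs3, a feedback inhibitor of cytokine signalling (1.14 and 1.17, adjusted p = 0.00137 in limma), Sting1, an adaptor of DNA sensing (0.94 and 1.02, adjusted p = 0.00253), and the interferon gamma receptor chains Ifngr1 (0.76 and 0.68, adjusted p = 0.00889) and Ifngr2 (0.87 and 0.54, adjusted p = 0.0177). For the type I receptor, Ifnar1 stood at 0.13 and 0.33 and Ifnar2 at 0.30 and 0.56, neither called (adjusted p of 0.365 and 0.0953), and whether the 2 receptors' ratios differ was not tested.

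The interferon genes themselves showed no call. Of 10 interferon genes with a probe, 8 were tested. Limma called 0 of them, beside 3.79% of all genes called higher and 1.21% lower, with 1 at an unadjusted p under 0.05. That gene was Ifnab, at -0.35 and -0.25 (adjusted p = 0.208 in limma). Ifng, which encodes interferon gamma, stood at -0.003 and 0.25 (adjusted p = 0.66 in limma). Its levels were low, at 6.36 and 7.16 in mutant RNA and 6.36 and 6.91 in wild type RNA. The offset therefore limits the change that Ifng can show. Ifnb1 was well above background in 2 of 4 channels and Ifna11 in 0 of 4, and neither was tested. Across the 4 channels, 94.6% to 97.4% of all spots were well above background. Being above background thus does not by itself show that an interferon transcript was present. Whether the interferon alpha probes also read related genes was not tested.

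Of 68 other induced genes, outside the member list, 52 were tested. Limma called 20 higher (38.5%, beside 3.79% of all genes) and 0 lower (beside 1.21%), and 32 were not called. At an unadjusted p under 0.05 in limma, 28 were higher and 0 lower, beside 10.1% and 6.31% of all genes. Their medians were 0.27 and 0.44, with 35 above 0 on both arrays, 4 below 0 on both and 13 of opposite signs. Of all genes, 31.9% were above 0 on both arrays and 28.9% below. The lowest mean was that of Slfn3, at -0.33. The chemokine genes Cxcl10 (1.54 and 1.65) and Cxcl9 (0.62 and 1.24) and the immunoproteasome subunit genes Psmb8 (1.51 and 1.16), Psmb9 (1.23 and 1.30) and Psmb10 (0.87 and 0.83) were among the 8 with the largest means, with Rtp4 (1.07 and 1.19), Lgals3bp (0.85 and 1.08) and Tor3a (0.71 and 0.88). Their adjusted p lay between 0.000406 (Cxcl10) and 0.0146 (Cxcl9) in limma. Some of these genes respond to other cytokines as well.

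**Figure D4:**
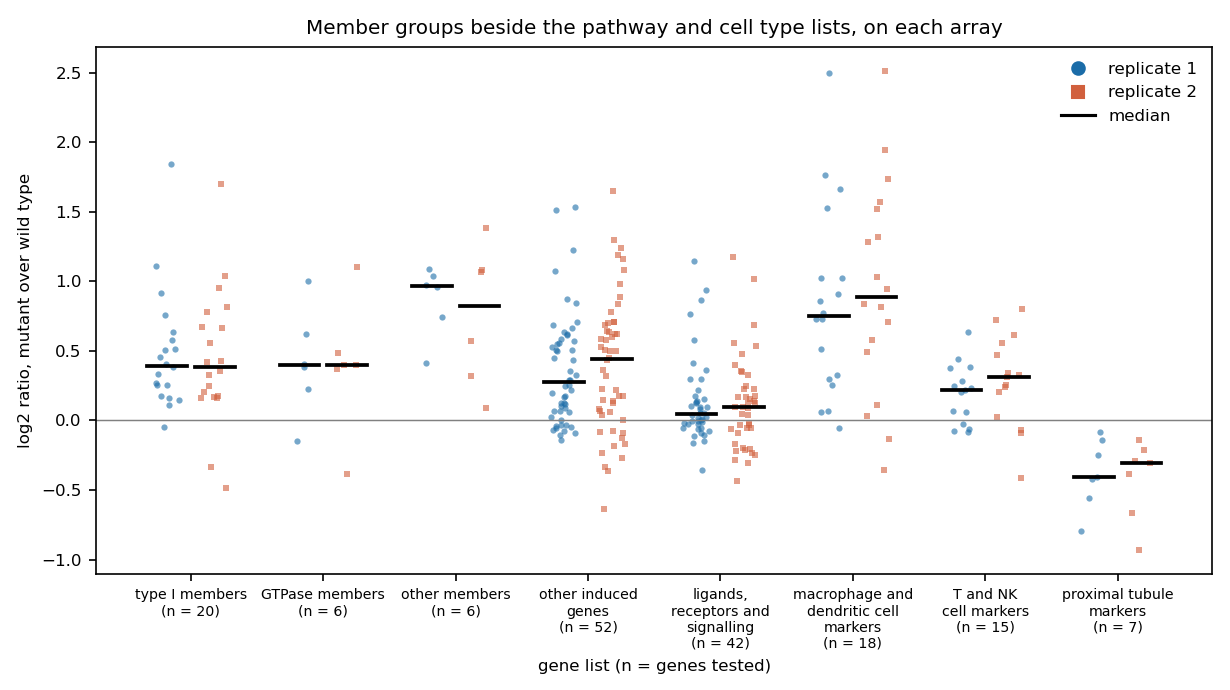
Log2 ratio (mutant over wild type, y axis) of single genes on replicate 1 (circles) and replicate 2 (squares) for the member groups and for the pathway and marker lists; black bars are medians. Type I and GTPase members have medians near 0.4 on the scale plotted. With the scanner's log ratios the medians are 0.63 and 0.58 for type I members and 0.43 and 0.43 for GTPases. The medians of ligands, receptors and signalling genes are 0.05 and 0.10, with 4 genes called higher (9.52%, beside 3.79% of all genes). The medians of macrophage and dendritic cell markers are 0.75 and 0.89.

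Markers of some other cell types were called in the same direction as the members. Of all genes, limma called 3.79% higher and 1.21% lower. At an unadjusted p under 0.05 in limma the shares were 10.1% and 6.31%, and 28.9% were below 0 on both arrays. Of 18 macrophage and dendritic cell markers, 12 were called higher and 0 lower, with medians of 0.75 and 0.89, and their mean log2 level was 8.89 and 8.98 in mutant RNA against 8.06 and 8.04 in wild type RNA. Of 15 tested T and natural killer cell markers, 1 was called higher in limma and 6 were higher at an unadjusted p under 0.05, with medians of 0.22 and 0.31 and a mean level of 7.96 and 7.71 against 7.76 and 7.42; Gzma was not well above background. Of 6 B cell markers 1 was called higher (1 higher and 1 lower at an unadjusted p under 0.05), and of 3 plasmacytoid dendritic cell markers and 3 tested neutrophil markers 0 (limma; 0 of these 6 at an unadjusted p under 0.05). Limma called 0 of 6 endothelial, 0 of 5 podocyte and 0 of 5 tested loop, distal tubule and collecting duct markers, with 0, 2 and 1 higher at an unadjusted p under 0.05. All 6 tested fibroblast markers and 7 of 9 adipocyte markers were called higher, with mean levels of 10.18 and 10.34 against 8.79 and 8.77, and of 10.59 and 10.51 against 9.14 and 9.07. Proximal tubule markers were below 0 on both arrays for 7 of 7, with 1 called lower in limma and 6 lower at an unadjusted p under 0.05, and their mean level was 12.16 and 12.14 against 12.54 and 12.55. Irf8 and Bst2 are also expressed by leukocytes at rest. The part of these cell types in the members' ratios was not tested.

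The number of members called depended on the processing. The 13 calls became 8 with an offset of 16 and 6 with median centring, where 1.65% and 1.28% of all genes were called higher. With the scanner's own log ratios limma called 0 members and 0 genes in all, although 20 members were higher at an unadjusted p under 0.05 and their median rose to 0.63. With a scanner P below 0.01 on each array, a test within an array, 10 members were higher and 0 lower, where 2.5% and 0.926% of all genes were. At least 2-fold on both arrays were 4 members, Ifi27l2a, Isg15, Iigp1 and Ifi205, against 0.73% of all genes.

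**Figure D5:**
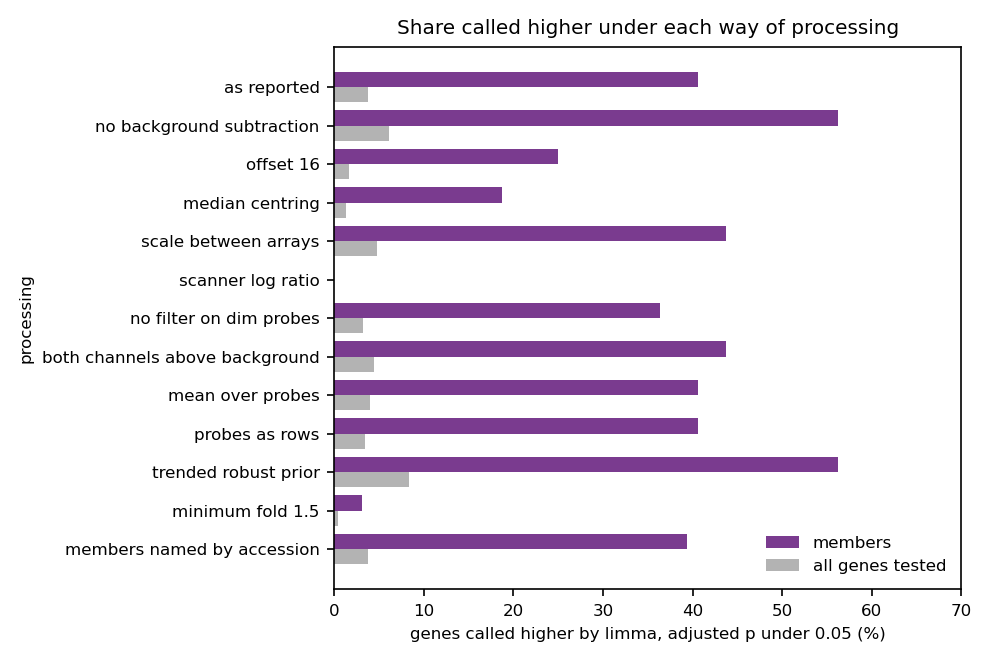
Share of genes called higher by limma (x axis, percent) among the members (dark bars) and all genes tested (grey bars) under each way of processing. The members called range from 0 of 32 with the scanner's log ratio to 18 of 32, and the dark bar is the longer wherever any gene was called.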

How the data were processed

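Arrays of 2 colours compared Glis2 mutant with wild type kidney RNA. Amplification and labelling started from 500 ng of total RNA per the labels' protocols, and 750 ng of each cRNA was hybridised for 17 hours. Per the file headers, Agilent Feature Extraction 8.1.1.1 wrote the mean spot and local background intensity, a log10 ratio of Cy5 over Cy3 after its own background subtraction and dye normalization, and a p-value for each log ratio from its error model. The authors' deposited value table holds the same log10 ratios with the sign turned. Other deposited columns used were flags of spots, 0 or 1.

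With R 4.3.3 and limma 3.58.1, intensities were corrected by normexp (offset 50), normalized by loess within arrays and turned to mutant over wild type. Spots well above background in the mutant channels of both arrays or the wild type channels of both were kept, and 88 flagged spots were left out. Repeat spots of 1 probe were averaged and a gene was read from its brightest probe. Genes were named by accession or symbol through RefSeq (GRCm38.p6); members by the names in the files, of which 30 matched by accession, 2 by current and 1 by older symbol. In each of 18357 genes the mean log2 ratio was compared with 0 by limma's lmFit and eBayes (1 residual and 6.58 prior degrees of freedom), with Benjamini-Hochberg adjustment. Levels are loess-normalized channel values with the average intensities quantile-normalized between arrays. The named genes are all members and, of each pathway list, up to 8 called genes with the largest means and up to 4 others. Members and lists were chosen with earlier results of these data known. On simulated data of this comparison with 18357 genes, the fit called 26% of genes changed 1.5-fold, 82% of those changed 2-fold and 100% of those changed 4-fold. The simulated noise was drawn from the fit's own variance model, so these shares do not check that model on the measured arrays. Alternatives covered background, offset, normalization, ratio source, filter, probes, prior, minimum fold and naming.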

Additional observations from a re-analysis of the deposited data

How the results depend on the processing

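Against 696 higher and 223 lower genes, limma called 1125 and 530 without background subtraction, 302 and 56 at offset 16, 235 and 48 under median centring, 1540 and 932 with a trended, robust prior, 80 and 6 with a minimum fold of 1.5, and 0 and 0 with the scanner's log ratio or the series value table. The scanner's P gave 459 higher, and a 2-fold change on both arrays 134 and 13. Against 13, the members called higher were 8 at offset 16, 6 under median centring, 1 with the minimum fold (Ifi27l2a), 0 with the scanner's log ratio or the series value table, and 4 at 2-fold on both arrays; other settings gave 10 to 18. Members called lower were 0 in every setting run. The members' median of 0.40 became 0.35 without background subtraction, 0.50 with offset 16, 0.43 with scaling between arrays, and 0.63 with the scanner's log ratio or the series value table; leaving out an array gave 0.41 to 0.44. Type I minus GTPase, -0.03 for the mean of arrays, was -0.097 without background subtraction, 0.072 at offset 16, -0.060 under median centring, -0.0056 with scaling, 0.15 with the scanner's ratio or the value table, -0.055 with no filter on dim probes, -0.019 with naming by accession, and -0.013 to -0.0038 with an array left out, so its sign was not stable. None of the 13 called members changed sign under any alternative, and Mx1 alone did so among the 32, at 0.16 without replicate 2. Limma gave no count with 1 array. The causes of these shifts were not tested. The ratio of each array already pairs the genotypes, so no further block was fitted. The offset limits what dim members such as Oas2 and Mx2 can show.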

Other observations

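Several dim members had ratios farther from 0 on the scanner's own scale, which adds no offset. Oas2 gave 0.62 and 0.84 there, against 0.26 and 0.35 on the scale reported, and Mx2 0.68 and 0.78 against 0.38 and 0.42. Negative ratios were lower there, as for Oas3 at -0.09 and -0.57 against -0.05 and -0.33, and for Mx1 on replicate 2 at -0.67 against -0.49. Stat2 on replicate 1 was at 0.11 on both scales. The scanner's P for replicate 2 was 0.774 for Oas2 and 0.651 for Mx2. Bright members changed less between the scales, as for Ifi27l2a at 1.88 and 1.74.

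Several members with a low ratio on replicate 2 had a brighter wild type channel there than on replicate 1. Besides Ifi204 these were Usp18 (wild type log2 levels of 7.12 and 7.90), Ifit1 (6.95 and 7.65) and Mx1 (7.43 and 7.89). They were picked after their values were seen, and Stat2 and Ifit2 showed the opposite order, with wild type levels of 7.65 and 7.47 for Stat2 and of 7.08 and 6.79 for Ifit2.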
